A study of Mus musculus with 16 samples.

Results

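H3K27me3 was set against IgG in haploid spermatids of WT mice, with 2 H3K27me3 and 2 IgG libraries out of the 16 libraries of the study. All 4 were taken by their labels. The spermatids, the round and elongating cells that follow meiosis, were sorted live by DNA content from testes of 2-month-old WT males, which carry intact H2A.B genes and are siblings of H2A.B triple KO males on a backcrossed C57BL/6J background. AutoCUT&RUN releases the DNA around antibody-bound nucleosomes with tethered MNase, and the paired ends of each released fragment give its position and length. Replicates 1 and 2 were run on separate dates, and the H3K27me3 and IgG libraries of a replicate number came from the same WT male, so n = 2 males. The KO libraries are used below only as libraries that no choice of region had used.

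H3K27me3 is the trimethyl mark that the EZH1 and EZH2 enzymes of Polycomb repressive complex 2 place on histone H3. CBX proteins of Polycomb repressive complex 1 bind it, and genes that carry it are usually silent. In the mammalian germ line it is known to sit on developmental regulators whose promoters are rich in CpG, and part of it is kept in sperm. The question here is where in the spermatid genome it stood above the IgG background, how wide its domains were, and which genes they held.

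The libraries were of very unequal depth. On the 19 autosomes, H3K27me3 replicate 1 held 2863163 distinct fragments and replicate 2 held 196218, against 140669 and 140181 in the IgG libraries. All levels below are FPM, fragments scaled to 1000000 distinct autosomal fragments per library. A single fragment was worth 0.349 FPM in H3K27me3 replicate 1, 5.10 FPM in replicate 2, and 7.11 and 7.13 FPM in the IgG libraries, so a level of 0 in the last 3 libraries is a weak statement for 1 gene. No IgG fragment over both IgG libraries is treated as a limit of 3 fragments over the group. Across 20807 protein-coding gene starts, Pearson's r of log2 levels was 0.894 between the H3K27me3 replicates, 0.252 between the IgG replicates, and between -0.0335 and 0.0358 for an H3K27me3 and an IgG library. These are descriptions across genes that share libraries and depth.

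The sort was checked with marker genes, read as fragments within 5 kb of the gene start. The spermatid genes Prm1, Prm2, Tnp1, Tnp2, Acrv1 and Spaca1, which package DNA or build the acrosome, had H3K4me3, a mark of active promoters, at 18.4 to 96.4 FPM in the WT H3K4me3 libraries. Their H3K27me3 was at most 1.05 FPM in either replicate, except at Tnp1 with 12.6 and 10.2 FPM. The Sertoli cell genes Sox9, Wt1 and Gata4 had H3K4me3 of at most 4.23 FPM and H3K27me3 between 116 and 331 FPM. Amh, the fourth Sertoli gene read, had 7.0 and 20.4 FPM of H3K27me3 and 14.1 and 10.3 FPM of H3K4me3. Of the Leydig cell genes, Star, Cyp17a1 and Hsd3b1 had at most 3.92 FPM of H3K4me3 and 0.699 FPM of H3K27me3, while Insl3 had 156 and 153 FPM of H3K27me3. The meiotic genes Sycp1, Sycp3, Dmc1 and Spo11 had 13.7 to 69.5 FPM of H3K4me3 and at most 5.10 FPM of H3K27me3, and the spermatogonial genes Zbtb16, Kit, Gfra1 and Sall4 had at most 12.7 FPM of H3K4me3 and 25.5 to 181 FPM of H3K27me3. The blood and endothelial genes Ptprc, Cdh5 and Pecam1 had at most 5.65 FPM of H3K4me3. The part of a few other cells in the results was not tested.

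Sequences upstream of 5 gene starts are given first, to show what CpG-rich and CpG-poor starts look like. They were chosen after their H3K27me3 levels were seen, 3 among the highest and 2 without an H3K27me3 fragment, so their contrast is fixed by the choice. Each run is the 200 bases before the GENCODE start, 5′ to 3′ on the gene's strand in GRCm38 (mm10), with every CG in capitals. None of the 5 overlaps a RefSeq exon. Olig2, which specifies motor neurons and oligodendrocytes, lies at chr16:91225257-91225456 (+ strand). En1, a homeobox regulator of midbrain and limb, lies at chr1:120602218-120602417 (+). Bsx, a hypothalamic homeobox gene, lies at chr9:40873927-40874126 (+). Rps19, a ribosomal protein gene, lies at chr7:24884171-24884370 (+), and Prm1, a protamine gene of spermatids, at chr16:10805840-10806039 (- strand).
Olig2: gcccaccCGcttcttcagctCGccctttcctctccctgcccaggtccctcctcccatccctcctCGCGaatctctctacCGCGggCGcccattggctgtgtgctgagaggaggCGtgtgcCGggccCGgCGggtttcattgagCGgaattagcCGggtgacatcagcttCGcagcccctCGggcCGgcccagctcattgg
En1: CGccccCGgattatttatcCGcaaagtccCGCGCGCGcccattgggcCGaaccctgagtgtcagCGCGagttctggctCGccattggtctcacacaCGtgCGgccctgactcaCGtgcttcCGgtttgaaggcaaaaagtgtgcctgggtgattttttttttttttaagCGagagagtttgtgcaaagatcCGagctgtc
Bsx: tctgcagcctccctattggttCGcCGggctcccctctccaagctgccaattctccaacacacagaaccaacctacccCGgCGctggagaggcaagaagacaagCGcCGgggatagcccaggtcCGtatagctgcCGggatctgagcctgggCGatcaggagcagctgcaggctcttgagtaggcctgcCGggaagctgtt
Rps19: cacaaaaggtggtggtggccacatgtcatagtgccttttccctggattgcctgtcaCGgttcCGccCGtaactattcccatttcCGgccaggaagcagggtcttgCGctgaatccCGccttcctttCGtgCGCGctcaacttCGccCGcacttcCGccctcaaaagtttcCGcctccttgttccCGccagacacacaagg
Prm1: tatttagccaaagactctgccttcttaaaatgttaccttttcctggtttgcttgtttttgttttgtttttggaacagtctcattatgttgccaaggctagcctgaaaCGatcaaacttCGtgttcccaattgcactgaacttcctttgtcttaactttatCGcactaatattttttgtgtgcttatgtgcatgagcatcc
The first 3 runs hold 16, 17 and 10 CG, and their gene starts had mean H3K27me3 levels of 321, 276 and 308 FPM. The Rps19 run holds 14 CG, more than that of Bsx, and its window had no fragment in any of the 4 libraries. The Prm1 run holds 3 CG, and its window had no H3K27me3 fragment either.

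At gene starts, H3K27me3 stood above IgG at 4968 of 20807 coding genes (23.9%), led by homeobox and other regulators of the body plan. Fragments within 5 kb of each gene start were tested with limma on log2(FPM + 5) at the 8328 starts with at least 10 fragments over the 4 libraries. At an adjusted p (Benjamini-Hochberg) under 0.05, 4968 gene starts (59.7%) were higher in H3K27me3 and 98 (1.18%) were lower. The median log2 difference was 2.15 over all starts tested and 3.09 over those called higher. The starts called higher formed 4427 loci, with starts within 10 kb of each other counted as 1 locus. The remaining 12479 starts had too few fragments to test. A start reaches the minimum of fragments more easily where the deep H3K27me3 replicate 1 is high, so the share of tested starts is not one of all genes, and with no minimum 3055 starts were called higher. Without H3K27me3 replicate 1, the deep library, 1160 starts were called higher and 6 lower, and 2242 could be tested. Without IgG replicate 1, 55 were called lower. With the replicate number as a block, 187 were called lower.

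The 20 loci with the largest difference were, but for Gm36079, homeobox, paired box, forkhead or other transcription factor genes. Hoxa11, a regulator of limb and uterus, stood at 268 and 591 FPM in H3K27me3 replicates 1 and 2 and had no fragment in either IgG library. Its log2 difference was 6.29 ± 0.55 (SE, limma adjusted p = 0.00390), and its mean was at least 40.2-fold higher than the IgG limit. Lmx1b, a LIM homeobox gene of limb and kidney, had 269 and 459 FPM against 0 and 0, which is at least 34.1-fold higher. Pax2, which builds kidney and eye, had 250 and 469 FPM against 0 and 0. In these genes both H3K27me3 libraries were far above both IgG libraries, and replicate 2 was the higher of the H3K27me3 libraries.
Evx2, the homeobox gene beside the Hoxd cluster, had 199 and 535 FPM, and Evx1, its counterpart beside Hoxa, had 221 and 433 FPM. Pax6, the eye and forebrain regulator, had 219 and 418 FPM. Bsx had 285 and 331 FPM, and Foxb2, a forkhead gene, had 258 and 250 FPM. Bsx and Foxb2 were therefore the loci where the replicates lay closest.
The other loci were Hoxd10, Hoxc12, Olig2, Lhx1, Sp5, Foxa1, En1, Nkx2-3, Hoxc8, Pax9, Tfap2c and Gm36079, with log2 differences from 5.69 to 6.23. All 20 had no IgG fragment, which the ranking favours, since a single IgG fragment lowers the log2 difference. Hoxc9, with 242 and 510 FPM against 0 and 7.13 FPM in IgG, had 5.47. The naming rule asked for both H3K27me3 libraries above both IgG libraries, so the lack of overlap is fixed by the choice. All 4968 starts called higher met this condition. Of all 20807 gene starts, 34.4% had both H3K27me3 libraries above both IgG libraries. Gm36079 is set apart by its sequence: 86.4% of 25-base words sampled from its window recur elsewhere in the assembly, against at most 3.61% at the other 19 loci, so its reads cannot be placed on 1 copy with certainty.

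**Figure D1:**
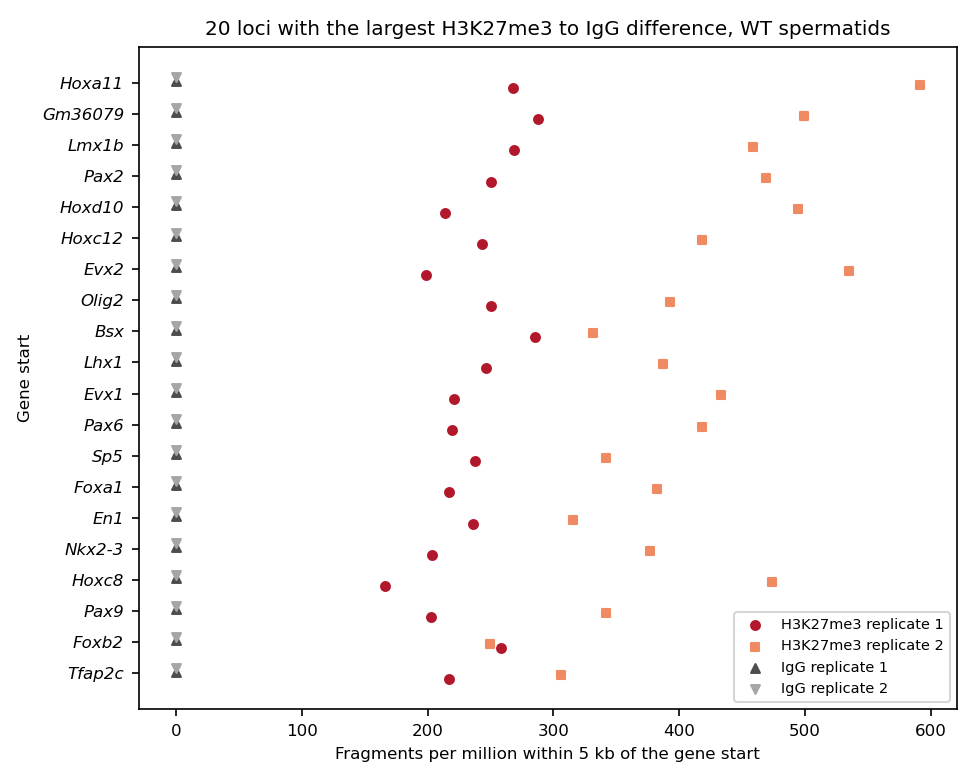
FPM within 5 kb of the gene start (x axis, linear) for the 20 loci with the largest log2 difference (y axis), with 1 point for each of the 4 WT libraries. All 40 IgG points lie at 0 and the H3K27me3 points lie between 166 and 591, with replicate 2 the higher at every locus except Foxb2.

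The 98 gene starts called lower had a median IgG level of 24.9 FPM and a median H3K27me3 level of 3.42 FPM. At 25 of them, IgG was over 10 times its mean. Olfr1160, an olfactory receptor gene, had 149.3 and 121.3 FPM in the IgG libraries and 1.40 and 35.7 FPM in H3K27me3. Sec22b, a vesicle transport gene, had 178 and 42.8 FPM in IgG and 1.75 and 5.10 FPM in H3K27me3. Hc, which encodes complement C5, had 313 and 64.2 FPM in IgG and 4.89 and 25.5 FPM in H3K27me3. Olfr1425 and Ly6k completed the 5 largest drops, with log2 differences of -3.53 and -3.37. Hc, Olfr1160 and Sec22b lost the call under 9, 6 and 4 of 15, 14 and 13 other settings, among them no filter on fragments (limma adjusted p = 0.113, 0.0819 and 0.0576) and leaving out H3K27me3 replicate 1 (limma adjusted p = 0.456, 0.159 and 0.319). At all 5 starts both IgG libraries were above both H3K27me3 libraries, and at Olfr1160 and Hc replicate 2 of H3K27me3 was well above replicate 1.

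A gene start was called marked where each H3K27me3 library held at least 4 times the mean of a 10-kb stretch, that is 16.2 FPM, and more than both IgG libraries. This rule marked 3957 of 20807 gene starts (19%), of which 3698 were also called higher by limma. Just over the threshold, within 25% of it, lay 77 marked starts, and 552 starts lay within 25% below it. In replicate 2, where 1 fragment is worth 5.10 FPM, no level falls in the upper band, since 4 fragments already give 20.4 FPM, so these counts are set in part by that step. The median level at marked starts was 67.8 FPM in replicate 1 and 45.9 FPM in replicate 2, and the median was 0 in both IgG libraries.

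Most regulators of development on the lists carried the mark. Of the 39 Hox genes, which set position along the body axis, 38 were marked, and 37 were called higher against 59.7% of all starts tested. Their median level was 165 FPM in replicate 1 and 362 FPM in replicate 2. The exception was Hoxa4, with 2.79 and 20.4 FPM and a limma adjusted p of 0.305. Of 106 homeobox genes outside the Hox clusters, 102 were marked and 97 of the 104 tested were called higher, with median levels of 161 and 189 FPM. Hmx1 was the lowest of these, with 2.44 and 5.10 FPM.
Of 88 T-box, Sox, Gata, Fox and bHLH genes, 77 were marked and 81 of 85 tested were called higher. Olig2 and Sox14, a neuronal Sox gene, were among the highest, the latter at 308 and 331 FPM against 7.11 and 0 FPM in IgG. Mesp2, a somite gene of the same list, had no fragment in any of the 4 libraries. Of 59 signalling ligands and inhibitors, 47 were marked and 45 of 55 tested were higher. The highest were Wnt10b, with 177 and 229 FPM, Gdf6, with 193 and 194 FPM, and Wnt3, with 186 and 163 FPM, while Bmp5 had 0.699 and 0 FPM. Of 68 neuronal receptor and channel genes, 43 were marked, with the potassium channels Kcnh3 (158 and 143 FPM) and Kcna1 (136 and 133 FPM) and the dopamine receptor Drd4 (90.8 and 163 FPM) at the top.

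**Figure D2:**
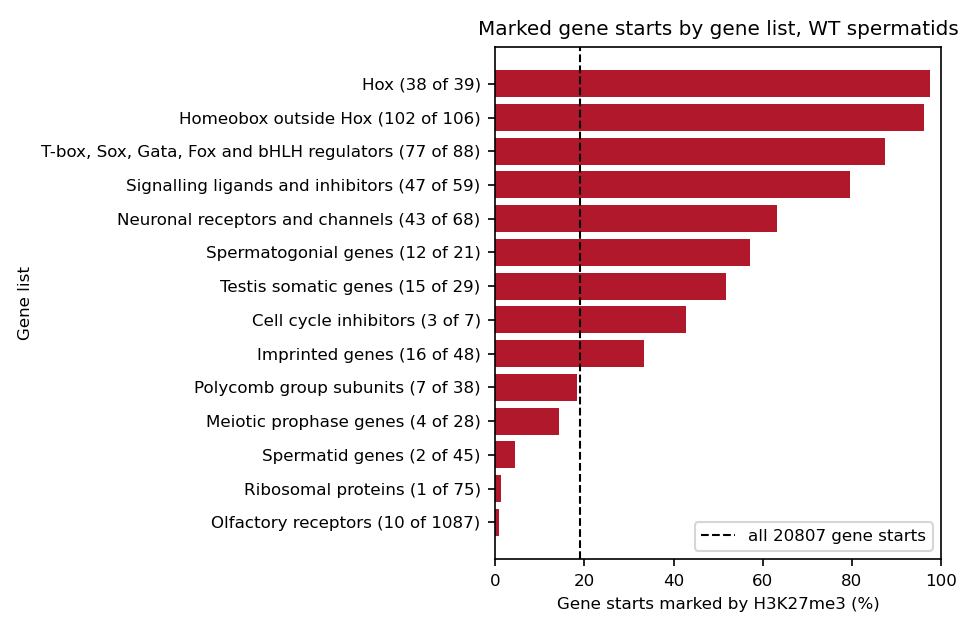
Share of gene starts marked by H3K27me3 (x axis, %) in 14 gene lists (y axis, with marked and total members), and in all 20807 gene starts (dashed line, 19%). Hox and homeobox genes lie above 96% and spermatid, ribosomal protein and olfactory receptor genes below 5%.

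Genes of other stages of the germ line and of testis somatic cells were split. Of 21 spermatogonial genes, 12 were marked (57.1%, against 19% of all starts), among them Gfra1, the GDNF receptor of stem cells, with 181 and 133 FPM, Utf1, with 131 and 117 FPM, and Stra8, the meiotic entry gene, with 109 and 127 FPM. Dnd1 had 0.699 and 0 FPM. Of 29 somatic genes, 15 were marked (51.7%), with Pdgfra (229 and 367 FPM) and Wt1 (256.4 and 331 FPM) at the top, whereas Adgre1 had no H3K27me3 fragment. Of 28 meiotic prophase genes, 4 were marked (14.3%), of which Stra8 is shared with the spermatogonial list. The next were Msh5, with 41.9 and 76.4 FPM (limma adjusted p = 0.0930, and 2.3e-04 with the replicate block), and Rad21l, with 30.4 and 30.6 FPM.
Of 45 spermatid genes, 2 were marked, 6 of 11 tested were called higher, near the 59.7% of all starts tested, and 1 lower. Spata3 led with 84.5 and 61.2 FPM and no IgG fragment. Izumo1, which encodes a sperm protein that binds the egg, had 54.5 and 76.4 FPM, but its IgG levels of 28.4 and 57.1 FPM overlapped them and the difference was not called (adjusted p = 0.295). Of 75 ribosomal protein genes, 1 was marked, 8 of 22 tested were higher and 1 was lower, against 59.7% and 1.18% of all starts tested. Rps29 had 5.24 and 214 FPM, and 49.8 and 135.5 FPM in IgG, so its groups overlapped. Its log2 difference was -2.08 (limma adjusted p = 0.318), and -1.30 under the replicate block (limma adjusted p = 0.0132). The sign was not stable. The mean FPM was 1.18 times higher in H3K27me3, and replicate 2 was higher in H3K27me3 than in IgG. With limma-voom, which also works on a log scale, the log2 difference was 0.21. What set the sign was not tested. Of 1087 olfactory receptor genes, 10 were marked, 23 of 108 tested were higher and 8 were lower, against the same background. Olfr214, the highest of them, had 104 and 56.1 FPM.

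The Polycomb group itself was marked at 7 of 38 genes (18.4%), near the 19% of all gene starts. Cbx8, which encodes a reader of H3K27me3, had 147 and 270 FPM. Epop, an Elongin-binding partner of the methyltransferase complex, had 95.7 and 117 FPM. Aebp2, another of its partners, had no H3K27me3 fragment. Of the 7 cell cycle inhibitors, 3 were marked. Cdkn1b had 170 and 153 FPM, Cdkn1c had 62.9 and 66.3 FPM, and Cdkn2a had 0.699 and 0 FPM. Of 48 imprinted genes, 16 were marked, led by Magel2 (129 and 107 FPM), Dio3 (119.8 and 101.9 FPM) and Dlk1 (110 and 81.5 FPM), all without an IgG fragment.

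Marked starts had lower H3K4me3 medians than the rest, a mark that the rule did not use. The median H3K4me3 level in the 2 WT H3K4me3 libraries was 2.82 and 2.94 FPM at marked starts and 12.7 and 12.7 FPM at the others. Both H3K4me3 libraries were at least 4 times the mean at 10.3% of marked starts and 41.7% of the others. CpG content, counted in 300 bases around the start, did not track the mark steadily. The share marked was 7.88% at starts with 0 to 5 CpG, 28.1% with 6 to 10, 28.3% with 11 to 20, 20.5% with 21 to 30 and 21.2% with over 30. Among unmarked starts with over 20 CpG, 65.0% had H3K4me3 at 4 times the mean in both libraries. These are descriptions over genes, with no test.

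Over the whole autosomal genome, H3K27me3 domains were mostly small, and 16 of them reached 100 kb (35 without H3K27me3 replicate 2 in the rule). Of 44371 10-kb bins with at least 10 fragments, 12328 (27.8%) were called higher and 1733 (3.91%) lower in H3K27me3 by limma. In simulated data 19 of 161 unchanged bins were called. That is a larger share than 0.05, which bounds the unadjusted p of every call, so the bin test is liberal. The bin counts depended on single libraries. Without H3K27me3 replicate 1, 1803 were higher and 27 lower, without H3K27me3 replicate 2, 19012 were higher, and without IgG replicate 1, 1134 were lower. With the replicate block 3105 were lower. With a pseudocount of 1 in place of 5, limma called 0 bins at the adjusted threshold, although 13996 were higher at an unadjusted p under 0.05.

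Bins in which both H3K27me3 libraries held at least 4 times their mean and more than both IgG libraries were joined into domains across gaps of 1 bin. There were 5886 domains, covering 88.1 Mb or 3.58% of the bins. With the level of replicate 1 alone in the rule, still above both IgG libraries, there were 8854. Single bins made up 4405 domains (74.8%), 1314 were 20 to 40 kb wide and 167 reached 50 kb. A coding gene started in 3121 domains (53.0%), and 25 domains held at least 5 gene starts. Bins inside domains had a median of 154 CpG and those outside 72. Domains held 52.8% and 50.2% of H3K27me3 fragments in replicates 1 and 2 and 2.08% and 2.45% of IgG fragments (95% Wilson intervals, which cover counting error only, 52.8% to 52.9%, 49.98% to 50.42%, 2.01% to 2.16% and 2.37% to 2.54%). Those shares describe the libraries that chose the domains.

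**Figure D3:**
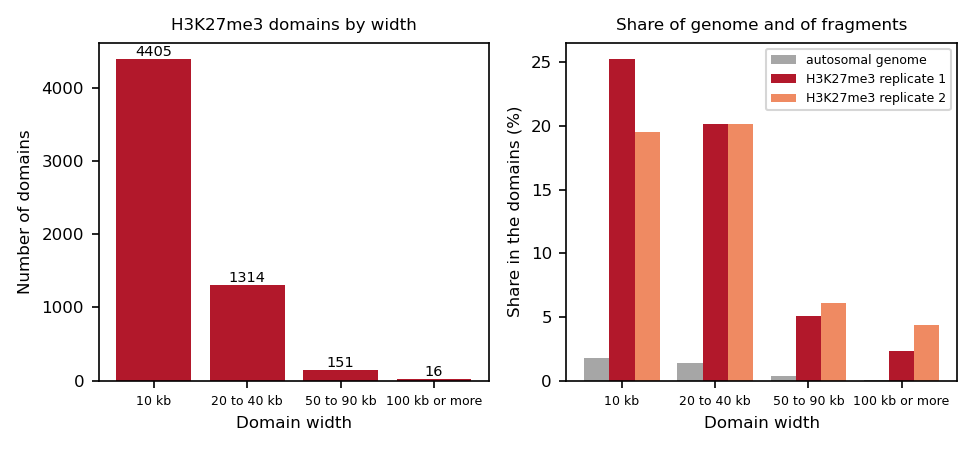
Number of H3K27me3 domains by width class (left) and the share of the autosomal bins and of the fragments of H3K27me3 replicates 1 and 2 inside each class (right, %). The 16 domains of 100 kb or more cover 0.0812% of the bins and hold 2.33% and 4.37% of the fragments.

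The domains were next read in libraries that had no part in choosing them. Domains called from the replicate 1 libraries alone, with H3K27me3 above IgG replicate 1 and IgG replicate 2 not used, numbered 8893 and covered 5.80% of the genome. They held 55.2% of the fragments of H3K27me3 WT replicate 2 and 70.1% and 47.8% of those of the KO H3K27me3 libraries, against 4.25%, 4.15% and 4.09% in the IgG libraries of WT replicate 2 and the KO mice. The mean was 57.7% ± 11.4 for H3K27me3 and 4.16% ± 0.081 for IgG (SD, n = 3 libraries each). The exact two-sided permutation p of 0.1 is the smallest that 3 against 3 unpaired libraries can give. The test did not keep the H3K27me3 and IgG of a male together, and with such pairs kept the smallest p would be larger. The H3K27me3 and IgG shares did not overlap, although WT and KO libraries are mixed in both groups. KO replicate 1, with the highest share of 70.1%, carries the date of the WT replicate 1 libraries that chose the domains. Of the 5886 domains, 97.1% had both KO H3K27me3 libraries above both KO IgG libraries, and 75.04% had both at 4 times the mean. The share of all bins that meets either condition was not counted, so these shares have no background beside them. Mean levels per bin in the KO H3K27me3 libraries were 64.7 and 46.8 FPM inside domains and 1.86 and 2.54 FPM outside.

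All 4 Hox clusters were among the 10 widest domains. The Hoxc cluster on chromosome 15 (chr15:102910001-103110000) was the widest, 200 kb with 9 Hoxc starts, and its level per 10 kb was 122 and 247 FPM in H3K27me3 and 3.20 and 3.92 FPM in IgG. A gene-free domain of recurring sequence on chromosome 6, described below, came next with 150 kb. Hoxd with Evx2 (chr2:74640001-74780000) spanned 140 kb at 125 and 254 FPM against 2.54 and 1.53 FPM. Hoxb (chr11:96230001-96370000) spanned 140 kb at 120 and 254 FPM against 5.08 and 2.55 FPM. Hoxa with Evx1 (chr6:52200001-52330000) spanned 130 kb at 139 and 276 FPM against 2.73 and 1.65 FPM. All 4 clusters had about the same level, and in all 4 replicate 2 was the higher. In the KO libraries they lay between 141 and 231 FPM.
Of the other domains among the 10 widest, 4 held mostly unique sequence and were weaker than the Hox clusters. A 140-kb domain on chromosome 15 over the sodium channel gene Scn8a and Fignl2 had 40.5 and 48.4 FPM, and a 130-kb domain on chromosome 7 over Ryr1, the calcium release channel of muscle, and Rasgrp4 had 34.4 and 41.6 FPM. A 130-kb domain on chromosome 5 with no coding start, over part of 2410131K14Rik, had 31.2 and 42.3 FPM. In the Scn8a, Ryr1 and chromosome 5 domains 10 of 14, 10 of 13 and 11 of 13 bins met the rule, and the rest were gaps. In the Hoxc, Hoxd, Hoxb and Hoxa domains 19 of 20, 14 of 14, 14 of 14 and 12 of 13 bins did. The Pcdhg cluster, an array of alternative first exons of cell adhesion genes, formed a 110-kb domain with 18 starts at 87.1 and 129 FPM.

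Of the 10 strongest domains, 5 held mostly recurring sequence. Of the 18 domains among the 10 widest or the 10 strongest, 5 had more than 50% of their sampled 25-base words at more than 1 place in the assembly, with mean levels of 457 to 1756 FPM per 10 kb. Over all 5886 domains the median share of such words was 7.21%, and 258 domains exceeded 50%. A neighbouring pair on chromosome 6 (chr6:47650001-47690000 and chr6:47730001-47780000) without an annotated gene had shares of 96.0% and 93.7% and levels of 1130 and 2383 FPM and of 893 and 1979 FPM. IgG was also high in this pair, with 53.3 and 66.0 FPM and 55.4 and 51.4 FPM, as was H3K4me3, with 281 and 155 FPM and 219 and 146 FPM. Another gene-free domain on chromosome 6 (chr6:114490001-114640000), 150 kb wide, had a share of 93.9% and levels of 324 and 709 FPM. The 120-kb domain on chromosome 8 over the 5S ribosomal RNA array (chr8:123510001-123630000) had 74.5% and 339 and 733 FPM. The part of multiple copies in these levels was not tested.
The strongest bin of all, on chromosome 17 (chr17:39840001-39850000), is annotated with Gm26917, CT010467.1, Gm42418 and AY036118. The gene types there are long noncoding RNA and ribosomal RNA, and 32.9% of the words sampled from this bin recur. It had 2382 and 4067 FPM in H3K27me3 and also 164 and 207 FPM in IgG, 672 and 590 FPM in H3K4me3 and 217 and 282 FPM in H3K9me3, so all 4 kinds of library were high there. The Tmem125 bin on chromosome 4 had 1069 and 1641 FPM in H3K27me3, 1124 and 641 FPM in H3K9me3, and 14.2 and 157 FPM in IgG. Its share of recurring words was 20.6%. By contrast, Sox14 (321 and 347 FPM, IgG 7.11 and 0) and Bsx (308 and 336 FPM, IgG 0 and 0) were strong 10-kb domains of nearly unique sequence, with 1.002% and 3.01% recurring words. Flg, which encodes the skin protein filaggrin, lay in a 30-kb domain of 231 and 401 FPM with 44.9% recurring words. The domain with Duxf3, a repeated homeobox gene, had 468 and 446 FPM with 70.1%.

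**Figure D4:**
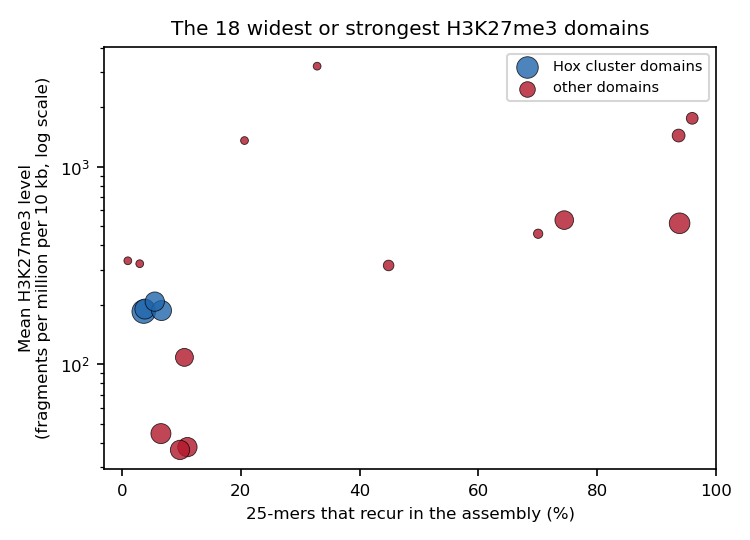
Share of sampled 25-base words that recur in the assembly (x axis, %) against the mean H3K27me3 level (y axis, FPM per 10 kb, log scale) for the 18 domains among the 10 widest or the 10 strongest, with point area increasing with width. The 4 Hox cluster domains lie together at 184 to 207 with under 7% recurring words, and the 5 domains above 50% lie at 457 to 1756. The highest point, the chromosome 17 bin, lies at 3225 with 32.9% recurring words, and the Tmem125 bin at 1355 with 20.6%.

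Around gene starts the mark was usually a few kb wide. Width was read in replicate 1 as the run of 1-kb bins at 4 times the mean around the start, and 3793 of the 3957 marked starts had one. The median was 6 kb (10th to 90th percentile 4 to 13 kb), 771 starts reached 10 kb, 193 reached 20 kb and 41 reached 50 kb. The run reached farther downstream than upstream at 2323 starts, farther upstream at 837, and equally far at 633. The median width was 62 kb at Hox starts, 16 kb at other homeobox starts, 13 kb at T-box, Sox, Gata, Fox and bHLH starts, and 8 kb at ligand starts. The widest was Hoxc4, with at least 126 kb, since its run reached 100 kb upstream, which is as far as the search went. Neighbouring Hox starts share these runs. Among the named genes outside the clusters, Wnt10b had 39 kb, Pax6 36 kb, Lmx1b 28 kb, Cbx8 27 kb, Pax2 24 kb, Nkx2-3 23 kb and Sox14 22 kb, whereas Kcna1 had 7 kb and Rad21l 3 kb.
Wider starts were also higher in replicate 2, which did not set the width, though its level had entered the choice of marked starts. Its median was 30.6 FPM at starts of 1 to 4 kb, 50.96 FPM at 5 to 9 kb, 96.8 FPM at 10 to 19 kb and 194 FPM at 20 kb or more. In the KO H3K27me3 libraries the same classes had medians of 40.9 and 20.4 FPM, 79.0 and 40.9 FPM, 120 and 77.4 FPM, and 159 and 155 FPM. The order of the classes was the same in all 3 libraries, and a 10-kb window holds a larger part of a wide run than of a narrow one by construction.

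Mean profiles gave the shape in libraries that were too shallow for single genes. Over 5156 gene starts chosen in replicate 1 alone, the smoothed profile peaked 0.5 kb downstream of the start in both WT H3K27me3 libraries and in both KO libraries. Its width at the level midway between peak and flank was 3.5 kb in all 4. That width runs from the 500-bp bin centred 1 kb upstream to the bin centred 2 kb downstream, both counted whole. The IgG profiles had no such peak at these starts. Within 10 kb of the start their highest smoothed values were 0.429 and 0.354 FPM per kb, against 14.3 and 10.7 FPM per kb in H3K27me3. Over the 15651 other gene starts the mean IgG profile peaked 0.5 kb downstream, at 3.44 and 2.65 FPM per kb against 1.05 and 0.872 in the flanks, while H3K27me3 reached 0.624 and 0.783 FPM per kb. That IgG mean does not describe most starts. Of all starts, 69.2% and 67.0% had no fragment in IgG replicates 1 and 2, and the highest start had a mean IgG level of 25834 FPM. The mean IgG level was 22.6 and 45.1 FPM at starts with 0 to 5 and 6 to 10 CpG, and 3.16 to 3.51 FPM in the classes with more. The 5156 starts were chosen by the level in H3K27me3 replicate 1, which also had to exceed that in IgG replicate 1. Starts where IgG replicate 1 was the higher therefore fell among the 15651 others by construction. The contrast in IgG is in part fixed by this choice. Of the 106 homeobox starts outside the Hox clusters, 102 were among the 5156 chosen starts. Over these 102 the width was 10 kb in H3K27me3 replicate 1 and 11.5 kb in replicate 2.

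**Figure D5:**
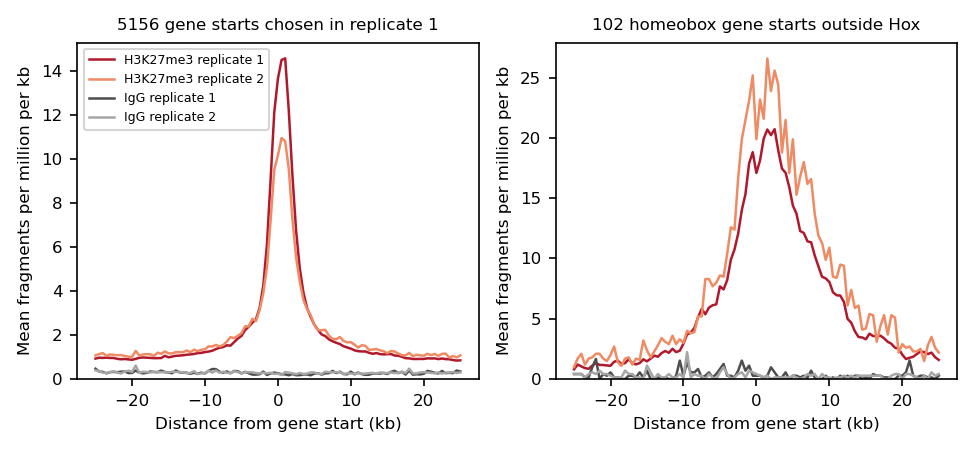
Mean FPM per kb (y axis) by distance from the gene start in kb (x axis, downstream positive) in the 4 WT libraries. The left panel holds 5156 gene starts chosen in the replicate 1 libraries. The right panel holds the 102 of these that are homeobox starts outside the Hox clusters. The curves are drawn unsmoothed, and the values given here are from the smoothed profiles within 10 kb of the start. Both H3K27me3 libraries peak 0.5 kb downstream of the start on the left and 2 kb downstream on the right. Their widths are 3.5 kb and 10 to 11.5 kb. The smoothed IgG profiles reach at most 0.429 on the left and 1.12 on the right within that distance.

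Fragment length, which the domain rule did not use, was read inside and outside domains. Fragments shorter than the DNA of a whole nucleosome, the small class of the study, made up 9.26% inside and 12.2% outside in H3K27me3 replicate 1, and 14.0% and 35.0% in replicate 2. In the IgG libraries the shares were 53.8% and 50.5%, and 42.6% and 44.6%. The inside minus outside difference was -12.0 ± 12.7 percentage points in H3K27me3 and 0.618 ± 3.72 in IgG (SD, n = 2 each). The exact two-sided permutation p was 0.333, the smallest that 2 against 2 unpaired libraries can give. The test did not keep the H3K27me3 and IgG of a male together, and with such pairs kept the smallest p would be larger. The length difference therefore cannot pass a threshold of 0.05 here. The H3K27me3 minus IgG value of -12.6 percentage points became -7.42 with every deposited fragment (exact permutation p = 1) and -11.02 without bins of high IgG (exact permutation p = 0.667), and in both the groups overlapped.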

How the data were processed

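Haploid spermatids were profiled by AutoCUT&RUN. The authors aligned paired 25-bp reads to mm10 with Bowtie2 (version 2.3.4.3 in the submitters' processing notes) and deposited, per library, the position and length of every mapped fragment, with no scaling and no pooling. The deposited values are positions and lengths in bp, not counts or a score per region. The methods state that duplicates were removed, but 64.5% to 82.9% of autosomal fragments in the 4 WT libraries repeat coordinates of another, so fragments with the same coordinates counted once per library.

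Midpoints were counted in 10-kb bins of chromosomes 1 to 19 and within 5 kb of GENCODE vM21 protein-coding gene starts, and scaled to 1000000 distinct autosomal fragments (FPM). limma 3.58.1 (R 4.3.3) was fitted to log2(FPM + 5), with each value weighted by the inverse of its counting variance plus a replicate CV of 0.3. Fold changes on this scale understate low genes. Features needed 10 fragments over the 4 libraries. The p-values rest on n = 2 males. Simulated data took library sizes and the means of most features from these libraries, with a replicate CV of 0.3, the value that the weights assume. The 200 changed features were set to known folds over the mean IgG level of all features. At gene starts the median IgG level was 3.55 FPM, and single starts of up to 25834 FPM raise the mean. On the simulated data the test found 165 of 200 changed gene starts and 143 of 200 changed bins. These counts do not show how well it finds changes at starts with little IgG. It called 9 of 187 unchanged gene starts and 19 of 161 unchanged bins, in bins more than the threshold allows. They do not show how the test behaves where real replicates differ more. Recurring sequence is the share of 25-base words, sampled every 20 bases, found more than once in GRCm38. Counting used Python 3.11.15, with pysam 0.24.0 and numba 0.67.0 for sequence, SciPy 1.17.1 for exact tests and pandas 2.3.3 and NumPy 2.4.6 for tables.

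Replicate numbers pair the libraries because H3K27me3 and IgG of a number come from the same male. The replicate differences of H3K27me3 and IgG correlated at -0.0161 over gene starts and -0.0427 over bins. The members and the 14 gene lists were chosen with earlier results of these data known. Named are the 20 loci with the largest difference among those with both H3K27me3 libraries above both IgG libraries, and the 5 largest drops. Also named are the 10 widest and 10 strongest domains, and in each list the 3 highest members and the lowest. A result that this rule would name is not reported here. The 5 printed sequences were chosen among these and the marker genes after their values were seen. Other settings are given in the closing section. The KO H3K4me3 and H3K9me3 libraries and chromosomes X and Y were not used here.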

Additional observations from a re-analysis of the deposited data

How the results depend on the processing

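At the 20 named loci, all 320 values under the alternatives kept their direction and their side of the threshold, though these loci were chosen for the size of their difference. With a library left out, 1 arm has a single library that is assumed to vary like the other arm. Over all 61 tested starts that the text or its lists name, 873 of 945 values did, 60 lost the call, 9 gained one and 3 changed sign, at 2 starts without a call. These were Rps29, whose log2 difference was -2.08 and became 0.21 with limma-voom, and between -3.10 and 1.32 with a library left out, and Izumo1, with 0.54 and, in a 2-kb window, -1.27, but 2.46 with the large fragment class (limma adjusted p = 0.0412) and 1.505 scaled to fragments outside domains (limma adjusted p = 0.0358), both called higher.

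Gene starts called higher numbered 3055 without a filter and 3015 with libraries thinned to 140181 fragments each, and 1160 to 4466 when a library was left out. Of the main 4968, the thinned data shared 2980 and the data without H3K27me3 replicate 1 shared 1156. Those called lower numbered 370 with every deposited fragment, 19 with a filter of 40 fragments, 54 with fragments of the study's large class only, 157 with limma-voom, 187 with the replicate block, 59 scaled to fragments outside domains, 24 thinned, 31 in a 2-kb window, and 6 to 138 with a library left out. Bins called higher numbered 5146 with every fragment, 7545 with limma-voom, 1442 without a filter, 0 with a pseudocount of 1 (where 13996 bins were higher and 3299 lower at an unadjusted p under 0.05), 5093 thinned, and 1803 to 19012 with a library left out. Bins called lower numbered, in turn, 799 with every fragment, 156 with the stricter filter, 877 with limma-trend, 10 without a filter, 0 with a pseudocount of 1, 3105 with the replicate block, 853 scaled to fragments outside domains, 328 thinned, and 27 to 2034 with a library left out. The cause of these moves was not tested, except that thinning, the stricter filter and leaving out a library test fewer features. The block moved no other count by over 1.5 times, and of the named starts it changed the call at Rps29, Msh5 and Rpl23a (limma adjusted p = 0.130 in place of 0.0312).

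Domains numbered 6536 to 8854 when 1 H3K27me3 library was left out of the rule. The share of fragments in domains, H3K27me3 minus IgG, was 49.2 percentage points, 53.4 at 3 times the mean, 44.8 at 6 times, 54.2 with every fragment, and 50.8 to 57.0 with a library left out. In libraries the rule had not used it was 53.5, and 48.3 to 54.8 with a library left out. The median width was 7 kb at 3 times and 5 kb at 6 times the mean. Domains of 100 kb or more numbered 16, and 6 without gaps, 55 with gaps of 2 bins, 30 at 3 times and 10 at 6 times the mean, 23 and 35 without H3K27me3 replicate 1 and 2, and 13 without the domains of recurring sequence. Scaling to fragments outside domains, chosen after seeing the data because the planned median of features outside domains was 0 and could not be run, moved the median log2 difference from 2.15 to 3.05 at gene starts and from 0.86 to 1.49 in bins. Without the domains of recurring sequence, also chosen after seeing the data, 5628 of 5886 domains were left. The IgG libraries hold about 1 fragment for every 20 in H3K27me3 replicate 1, which limits what an IgG level of 0 can show.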

Other observations

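Some bins held many IgG fragments. Bins in which an IgG library was over 10 times its mean numbered 2315, of which 43 lay in H3K27me3 domains, against 3.58% of all bins, but the domain rule asks for H3K27me3 above IgG and so by construction keeps out bins where IgG was the higher. They held 34.7% and 21.3% of the IgG fragments and 4.18% and 9.26% of the H3K27me3 fragments. Chromosome 9 took 14.5% and 12.1% of IgG fragments and 5.81% and 5.85% of H3K27me3 fragments. Among chromosomes, the share of bins in domains ran from 2.53% on chromosome 16 and 2.54% on chromosome 1, with 6.76 and 6.18 coding genes per Mb, to 4.997% on chromosome 19 and 5.13% on chromosome 11, with 11.7 and 13.4 genes per Mb. Chromosome 7, with the most genes per Mb (13.9), had 3.93% of its bins in domains.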
